A study of Homo sapiens with 12 samples.

Results

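The genes described here encode the RNA polymerase II machinery: the subunits of the enzyme (POLR2), the general transcription factors (GTF2), the TBP-associated factors (TAF), the subunits of Mediator (MED) and the subunits of Integrator (INTS). Members were the protein-coding genes of the authors' deposited table whose RefSeq symbol starts with POLR2, GTF2, SUPT or INTS, or with TAF or MED followed by a digit. The rule used names only and found 51 of the 5759 genes in the table. RefSeq holds 126 protein-coding names of this form, and the listed ones were 6 of 15 POLR2, 7 of 19 GTF2, 10 of 37 TAF, 20 of 30 MED, 8 of 16 INTS and 0 of 9 SUPT names. Of the 37 TAF names, 13 are copies of TAF11L, and 0 of those were listed. SUPT4H1, SUPT5H, SUPT6H, SUPT16H, TAF1, MED13 and MED14 are among the names that were not listed and are not analysed here.

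RNA was sequenced from MOLT4, an established line of human T lymphoblasts from an acute lymphoblastic leukaemia, in 12 samples. Vehicle cells received DMSO and were collected at 6 h (3 samples). Treated cells received 0.1 µM of compound 955 for 1 h (3 samples), 0.1 µM of 955 for 6 h (3 samples), or 1 µM of SNS-032 for 6 h (3 samples). SNS-032 inhibits several cyclin-dependent kinases, CDK9 of the transcription cycle among them, and 955 is a conjugate of piperlongumine with SNS-032 as its warhead, from work on targeted protein degradation. All groups are the same unmodified cell line, and the labels do not say whether the samples of a group were separate cultures, so the p-values measure the spread between these samples, which may be technical. The study asked how 955 compares with its warhead in effect and specificity.

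RNA polymerase II makes messenger RNAs and many small nuclear RNAs. The general factors place it at a promoter, with TFIID (TBP and its TAFs) binding first and TFIIA, TFIIB, TFIIF, TFIIE and TFIIH completing the assembly. Mediator links activators bound at enhancers to that assembly: its head and middle modules contact the polymerase, its tail module contacts activators, and a separable kinase module carries CDK8 or CDK19. After initiation the enzyme pauses near the start, and CDK9 releases it into elongation, while Integrator can cut the short transcript of a paused polymerase and end its transcription. Genes for this machinery are active in nearly every cell type, T lymphoblasts included.

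The authors' deposited table gives each gene a log2 fold change against DMSO, an F statistic, an unadjusted p and a false discovery rate (FDR) for each of 3 comparisons, and 1 average level over all samples. Values of single samples were not analysed here and the sequencing depth behind each value is unknown. Past the threshold means an FDR under 0.05 together with a log2 fold change of at least 1 in either direction. Every gene in the authors' deposited table met the FDR limit somewhere. Both criteria held together in at least 1 comparison for 5757 of the 5759 genes, so the listing nearly matches the threshold used here. The members are therefore machinery genes that were listed for having changed, and a share of them is not a share of the machinery. For members and for all listed genes, the shares tell in which comparison and direction a change fell, not whether there was any. The error given with a log2 fold change is an implied standard error (SE), the absolute log2 fold change divided by the square root of F, and its median over the members was 0.18 at 1 h and 0.19 in both 6 h comparisons. The average level of the members in the authors' deposited table lay between 1.06 and 8.16 log2 CPM, and its median was 4.65, against 4.15 over all listed genes. In bulk RNA, fewer cells of a type and less RNA per cell cannot be told apart. All 3 comparisons share the DMSO samples, so their values are given side by side and their likeness is no separate result.

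Cell identity could be checked only through marker genes that were listed. Of 17 T lymphoblast markers, 6 were listed (CD1E, CD2, CD3G, CD4, CD7 and ZAP70), at average levels of 4.75 to 10.1 log2 CPM in the authors' deposited table. Among the markers of other cell types, COL1A1 was listed at 3.18 and CD79A at 3.94 log2 CPM in the authors' deposited table. Their part in the results below was not tested. The 13 mitochondrially encoded mRNAs, which a separate polymerase transcribes, stood at median log2 fold changes of 0.67 (955, 1 h), 2.07 (955, 6 h) and 2.35 (SNS-032, 6 h) in the authors' deposited table. Setting those medians to 0 lowers every log2 fold change by the same amount. This mitochondrial scaling is the alternative against which each rise below is also given.

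Promoters of the 4 members with the largest changes of their kind, among those with a promoter sequence, are shown first. The 2 that fell most at 1 h and the 2 that rose most at 6 h differ in base composition. Whether base composition goes with the change over all listed genes was not tested, and these pairs differ in time as well as in direction. Each run is read 5′ to 3′ along the gene, from 120 bases before to 30 bases from the RefSeq start, with build GRCh38.p14. Capitals mark matches, on either strand, to 5 short motifs: the ETS core CCGGAAG, the GC box GGGCGG, the CCAAT box, TATAAA and the YY1 core AAGATGG. MED9 (chr17:17476880-17477029, plus strand) and MED17 (chr11:93784162-93784311, plus strand) had the lowest log2 fold changes after 1 h of 955 among the members with a promoter sequence. MED12L (chr3:151085544-151085693, plus strand) and INTS1 (chr7:1504360-1504509, minus strand) had the highest at 6 h of 955 in the authors' deposited table, and both lie below 0 under the mitochondrial scaling. Over the 300 bases around each start, GC content was 57% for MED9, 53.3% for MED17, 75.3% for MED12L and 74.3% for INTS1. It ran from 47% to 85% over the 42 members with a promoter sequence.
MED9: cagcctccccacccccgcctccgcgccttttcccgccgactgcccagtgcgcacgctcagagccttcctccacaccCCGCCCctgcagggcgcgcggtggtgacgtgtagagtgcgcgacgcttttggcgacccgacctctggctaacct
MED17: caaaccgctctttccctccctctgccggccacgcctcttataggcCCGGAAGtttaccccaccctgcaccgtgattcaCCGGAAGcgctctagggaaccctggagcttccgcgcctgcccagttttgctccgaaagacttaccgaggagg
MED12L: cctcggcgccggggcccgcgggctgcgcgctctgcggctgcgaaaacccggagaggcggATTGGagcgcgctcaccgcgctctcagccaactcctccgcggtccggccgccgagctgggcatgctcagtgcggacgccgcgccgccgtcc
INTS1: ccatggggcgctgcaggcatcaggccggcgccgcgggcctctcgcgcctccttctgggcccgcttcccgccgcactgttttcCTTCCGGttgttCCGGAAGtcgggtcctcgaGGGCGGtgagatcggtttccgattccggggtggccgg

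After 6 h most listed machinery genes were lower than in DMSO, and a small set that included INTS1 and MED12L stood higher under the authors' scaling. With 955 at 6 h, 36 of 51 members fell past the threshold, against 50.1% of all listed genes, and 5 rose, against 35.2% of all listed genes, in the authors' deposited table. With SNS-032 at 6 h, 39 members fell, against 52.5% of all listed genes, and 6 rose, against 37.8%, in the authors' deposited table. At 1 h of 955, 6 members fell, against 7.71% of all listed genes, and 0 rose, against 0.729%, in the authors' deposited table. The median log2 fold change of the members in the authors' deposited table was -0.22, -1.22 and -1.44 in those comparisons (955 at 1 h, 955 at 6 h, SNS-032 at 6 h), against -0.05, -1.03 and -1.07 over all listed genes. The highest FDR among members past the threshold was 0.0121 at 1 h of 955, 0.00212 at 6 h of 955 and 0.00663 under SNS-032 in the authors' deposited table. Under the mitochondrial scaling the split of members past the threshold became 0 higher and 19 lower at 1 h, 0 higher and 47 lower at 6 h of 955, and 0 higher and 49 lower with SNS-032. The same scaling took the share of higher genes among all listed genes past the threshold from 41.3% to 3.58% for 955 at 6 h and from 41.9% to 2.72% for SNS-032.

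Of the polymerase II subunit names, 4 of 6 fell with 955 at 6 h and 3 of 6 under SNS-032 in the authors' deposited table, against 50.1% and 52.5% of all listed genes, and a count of 3 in 6 is at that share. POLR2B, the second-largest subunit and a wall of the active centre, stood at -0.03 after 1 h of 955, -1.12 ± 0.12 (SE) after 6 h of 955 and -0.96 ± 0.12 under SNS-032 in the authors' deposited table, and the last fell short of the bound. POLR2C, a core assembly subunit, stood at 0.11, -1.001 ± 0.12 and -0.93 ± 0.12 in the same order in the authors' deposited table, so that it was barely inside the bound with 955 and barely outside it with SNS-032. For POLR2D, which forms part of the stalk where the transcript leaves, the authors' deposited table has -0.22, -1.22 ± 0.15 and -1.44 ± 0.15. POLR2K, a small subunit shared by the 3 nuclear polymerases, stood at 0.15, -1.19 ± 0.15 and -1.44 ± 0.15 in the authors' deposited table. These 4 subunits thus fell to between 2.0-fold and 2.32-fold lower with 955 at 6 h. POLR2M encodes an inhibitor that binds the polymerase and is not a core subunit, and it stood at -0.22, -0.85 ± 0.42 and -1.59 ± 0.43 in the authors' deposited table, past the threshold with SNS-032 (FDR 0.00521) and not with 955 (FDR 0.155). Its locus lies inside that of GCOM1 on the same strand, so reads of these genes may have been divided between them. POLR2J2, a paralog of the core subunit gene POLR2J, stood at 0.52, 1.51 ± 0.23 and 1.26 ± 0.23 in the authors' deposited table and at -0.56 and -1.09 in the 6 h comparisons under the mitochondrial scaling. It has near-identical copies, so its count is uncertain. POLR2A, the catalytic subunit, was not among the listed genes and is not analysed here.

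All 7 listed general factor genes stood below 0 in both 6 h comparisons of the authors' deposited table, with 6 past the threshold for 955 and 7 for SNS-032. Of all 5759 listed genes, 3395 and 3388 stood below 0 in these comparisons, and 50.1% and 52.5% fell past the threshold. GTF2B encodes TFIIB, which bridges TBP on the promoter and the polymerase. In the authors' deposited table it stood at -0.71 ± 0.40 after 1 h of 955, at -3.91 ± 0.47 after 6 h (15-fold lower, FDR 1.81e-05) and at -3.70 ± 0.46 with SNS-032 (13.0-fold lower, FDR 2.63e-05). That was the lowest log2 fold change of any member with 955 at 6 h. GTF2A1, the large-subunit precursor of TFIIA, which steadies TBP on DNA, stood at -0.28, -2.57 ± 0.19 (5.93-fold lower) and -2.35 ± 0.19 (5.09-fold lower) in the authors' deposited table. TFIIE, which brings in TFIIH, has its subunits encoded by GTF2E1 and GTF2E2. GTF2E1 stood at -1.29 ± 0.27 already at 1 h (FDR 0.00409), then at -2.05 ± 0.28 and -2.08 ± 0.28 in the 6 h comparisons of the authors' deposited table. Its partner GTF2E2 stood at -0.20, -1.21 ± 0.19 and -1.50 ± 0.19 in the authors' deposited table. TFIIF rides on the polymerase into the assembly. Its smaller subunit gene GTF2F2 stood at 0.16, -1.79 ± 0.18 and -1.35 ± 0.18 in the authors' deposited table, and its larger subunit gene GTF2F1 at 0.20, -0.91 ± 0.15 and -1.14 ± 0.15, past the threshold with SNS-032 alone. GTF2H1, a core subunit of TFIIH, the factor that opens the promoter, stood at -0.25, -1.35 ± 0.19 and -1.24 ± 0.19 in the authors' deposited table.

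Among the 10 TAF genes, 5 belong to TFIID, and of these 3 fell with 955 at 6 h and 5 under SNS-032 in the authors' deposited table. Of all listed genes, 50.1% fell with 955 at 6 h and 52.5% under SNS-032. Whether these 5 genes differ from those shares was not tested. TAF5, a scaffold of the TFIID core, stood at -1.38 ± 0.21 after 1 h of 955 (FDR 0.000177), -2.07 ± 0.21 after 6 h and -1.57 ± 0.21 under SNS-032 in the authors' deposited table. TAF4 and TAF12 pair through their histone folds within the same core. TAF12 stood at -0.08, -1.80 ± 0.20 and -1.87 ± 0.20, and TAF4 at -0.03, -1.08 ± 0.16 and -1.18 ± 0.16, in the authors' deposited table. TAF11, a histone-fold subunit near TBP, stood at 0.10, -0.77 ± 0.18 and -1.28 ± 0.19 in the authors' deposited table. TAF7, which binds TAF1 and has a gene without introns, stood at -0.31, -0.55 ± 0.20 and -1.26 ± 0.20 in the authors' deposited table. TAF5L and TAF6L take the places of TAF5 and TAF6 in the coactivator complex SAGA: TAF5L stood at -0.54, -1.27 ± 0.26 and -1.56 ± 0.27, and TAF6L at -0.14, -1.25 ± 0.16 and -0.61 ± 0.16, in the authors' deposited table. The names TAF1A, TAF1B and TAF1C satisfy the rule but encode subunits of SL1, which starts ribosomal RNA synthesis by polymerase I. TAF1A stood at -0.38, -0.93 ± 0.28 and -1.11 ± 0.28, and TAF1B at -0.08, -1.08 ± 0.23 and -1.28 ± 0.23, in the authors' deposited table. TAF1C, in contrast, stood at 0.28, 1.05 ± 0.12 and 1.16 ± 0.12 in the authors' deposited table, and at -1.02 and -1.18 in the 6 h comparisons under the mitochondrial scaling.

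**Figure D1:**
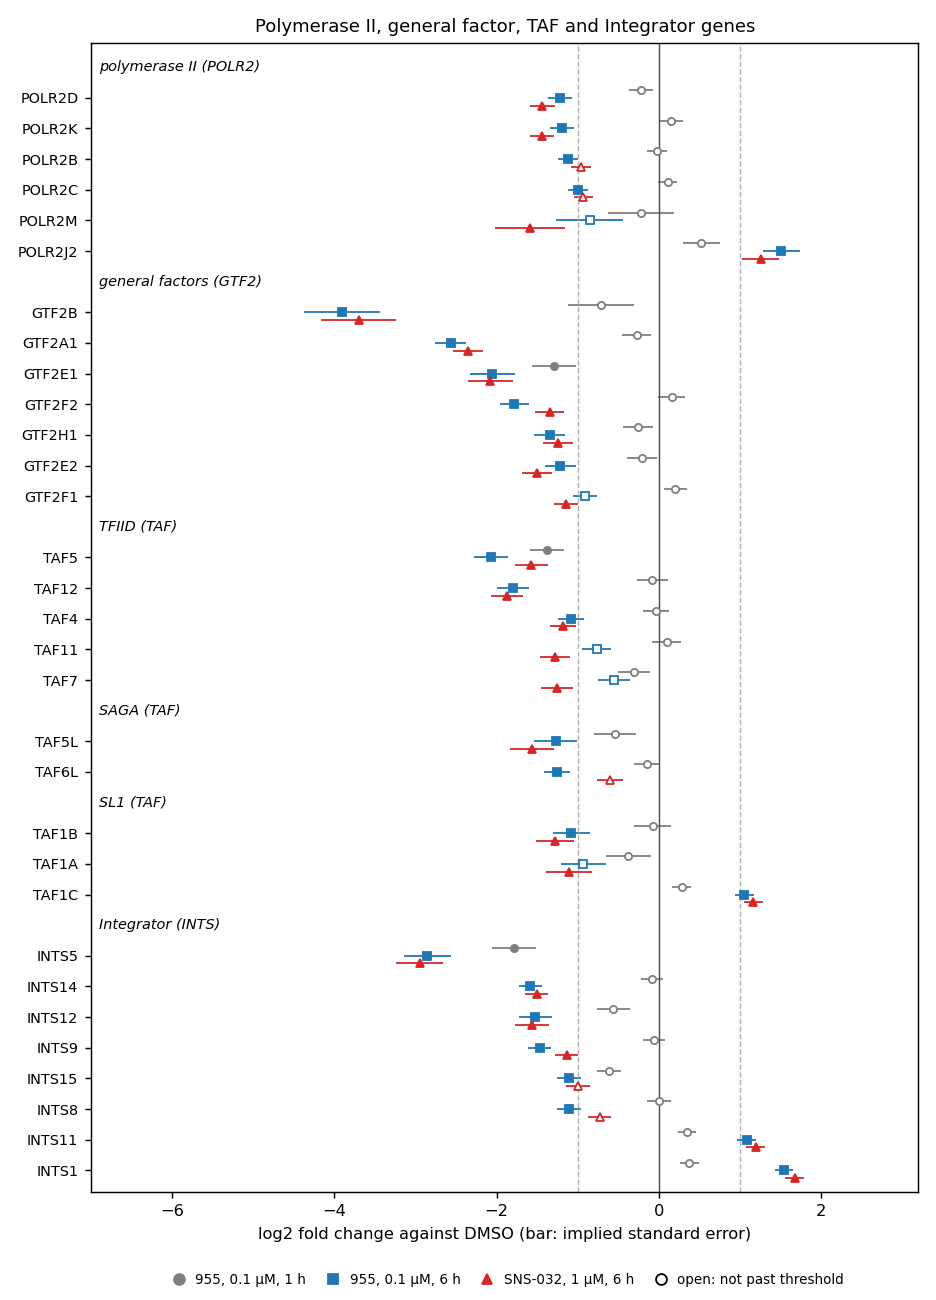
Log2 fold change against DMSO (x axis) of the 31 POLR2, GTF2, TAF and INTS members (y axis) in the 3 comparisons of the authors' deposited table, with bars for 1 implied standard error, filled symbols past the threshold and dashed lines at -1 and 1. GTF2B lies farthest left at 6 h of 955 (-3.91), and the grey 1 h symbols lie between -1 and 1 apart from INTS5, TAF5 and GTF2E1. The symbols right of 1 (INTS1, INTS11, POLR2J2, TAF1C) move below 0 under the mitochondrial scaling.

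Mediator was the most fully listed complex, with 20 genes, of which 14 fell and 1 rose with 955 at 6 h and 17 fell and 2 rose under SNS-032, by the authors' deposited table. The shares over all listed genes were 50.1% lower and 35.2% higher with 955, and 52.5% and 37.8% under SNS-032. The falls covered the head, middle and tail modules, and the listed genes of the kinase module were on the other side of 0 under the authors' scaling and below 0 under the mitochondrial scaling. In the head, 6 of 6 listed genes fell with each compound at 6 h. MED18, which forms a movable part of the head with MED20, stood at -1.29 ± 0.52 after 1 h of 955, -3.02 ± 0.57 after 6 h (8.12-fold lower) and -4.24 ± 0.62 with SNS-032 (18.9-fold lower) in the authors' deposited table, the last being the lowest log2 fold change of any member in any comparison. Its average level was 2.54 log2 CPM and its SE was the largest of the members in each comparison, and its 1 h value was not past the threshold (FDR 0.288). MED8, which ties MED18 and MED20 to the rest of the head, stood at -1.11 ± 0.26, -2.65 ± 0.28 (6.29-fold lower) and -3.47 ± 0.29 (11.1-fold lower) in the authors' deposited table. MED17, the central scaffold of the head, was already at -1.46 ± 0.19 after 1 h of 955 (2.76-fold lower, FDR 5.33e-05) and then stood at -1.65 ± 0.20 and -1.97 ± 0.20 in the authors' deposited table. MED20 stood at -0.40, -1.70 ± 0.16 and -1.55 ± 0.16 in the authors' deposited table. The remaining head genes MED6 and MED11 stood at -1.28 ± 0.24 and -2.19 ± 0.50 after 6 h of 955 and at -1.44 ± 0.24 and -1.95 ± 0.50 under SNS-032 in the authors' deposited table. MED11 had the lowest average level of the members, at 1.06 log2 CPM.

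In the middle module, which carries the signal between tail and head, 5 of 8 listed genes fell with 955 at 6 h and 7 of 8 under SNS-032 in the authors' deposited table. MED19, a small subunit at the face that meets the polymerase, stood at -0.36 ± 0.24 after 1 h of 955, -3.25 ± 0.26 after 6 h (9.54-fold lower, FDR 6.54e-10) and -3.45 ± 0.27 with SNS-032 (10.9-fold lower, FDR 2.64e-10) in the authors' deposited table. MED1, the docking subunit for nuclear receptors, stood at -0.26, -1.43 ± 0.13 and -1.44 ± 0.14 in the authors' deposited table. MED21, which forms the hinge of the module with MED7, stood at -0.44, -1.41 ± 0.22 and -1.49 ± 0.22 in the authors' deposited table. MED7 itself stood at -1.02 ± 0.33 after 1 h (FDR 0.0875), -0.90 ± 0.33 after 6 h and -1.52 ± 0.34 under SNS-032 in the authors' deposited table. MED9, one of the small subunits, stood at -1.71 ± 0.26 after 1 h of 955 (3.28-fold lower, FDR 0.00025), at -1.22 ± 0.26 after 6 h and at -1.52 ± 0.26 under SNS-032 in the authors' deposited table, and under the mitochondrial scaling at -2.39 after 1 h and -3.29 after 6 h of 955. MED26, which can bind elongation factors, stood at -0.41, -1.02 ± 0.36 and -1.52 ± 0.37 in the authors' deposited table, and its FDR with 955 at 6 h was 0.0553. MED4 stood at 0.28, -1.08 ± 0.16 and -0.91 ± 0.16, and MED10 at -0.28, -0.47 ± 0.24 and -1.02 ± 0.24, in the authors' deposited table.

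In the tail module, which receives activators, 3 of 4 listed genes fell with 955 at 6 h and 4 of 4 under SNS-032 in the authors' deposited table. Over all listed genes 50.1% and 52.5% fell, and 4 genes are too few to set apart from those shares. MED27 stood at -0.40 ± 0.17 after 1 h of 955, -2.31 ± 0.18 after 6 h (4.95-fold lower) and -1.33 ± 0.18 with SNS-032 (2.52-fold lower) in the authors' deposited table. MED29 stood at -0.58 ± 0.14, -1.93 ± 0.15 and -2.07 ± 0.15 in the authors' deposited table, with an FDR of 0.0165 at 1 h but a change under the bound. MED16, the tail subunit that holds the other tail proteins to the complex, stood at 0.04, -1.44 ± 0.14 and -1.38 ± 0.14, and MED30 at 0.08, -0.77 ± 0.17 and -1.07 ± 0.18, in the authors' deposited table. The listed kinase module genes were MED12, whose protein activates CDK8, and its paralog MED12L. MED12L stood at 0.35 ± 0.15 after 1 h of 955, 1.80 ± 0.15 after 6 h (3.48-fold higher) and 1.82 ± 0.15 with SNS-032 (3.53-fold higher) in the authors' deposited table, and at -0.27 and -0.53 in the 6 h comparisons under the mitochondrial scaling. MED12 stood at 0.42 ± 0.13, 0.91 ± 0.13 and 1.00 ± 0.13 in the authors' deposited table, just past the bound with SNS-032 alone, and at -1.16 and -1.34 in the 6 h comparisons under the mitochondrial scaling. CDK8, CDK19 and CCNC, the other genes of the module on the list used here, were not listed.

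**Figure D2:**
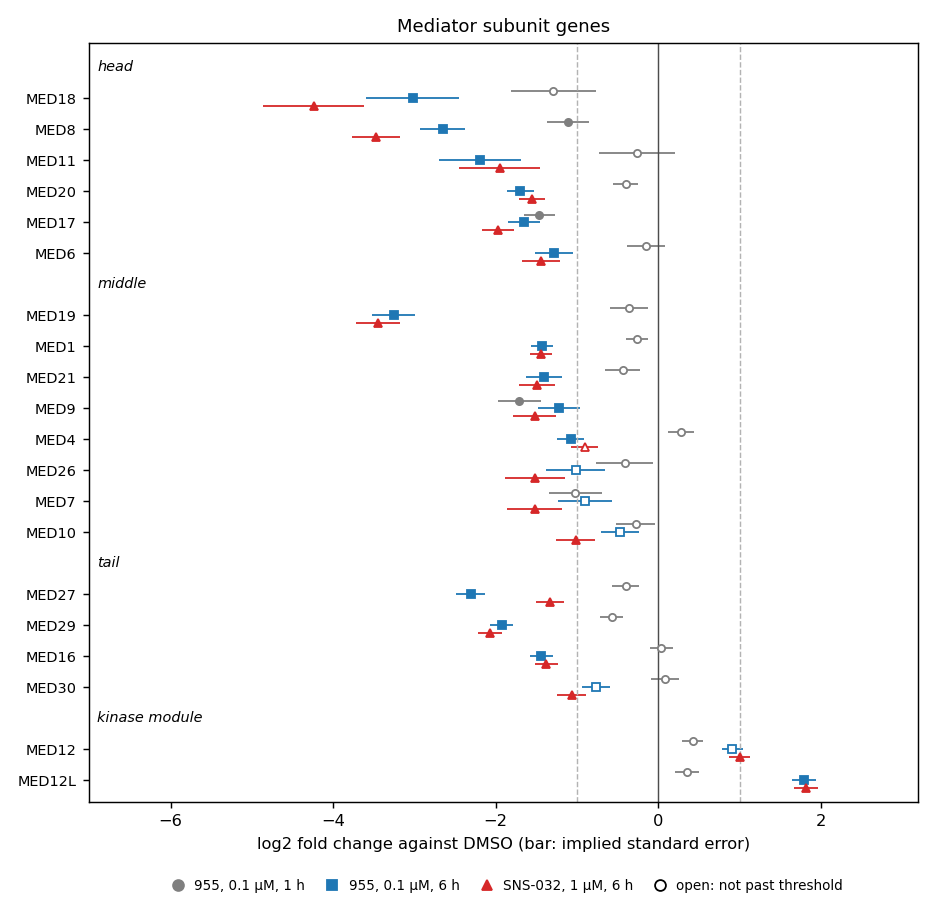
Log2 fold change against DMSO (x axis) of the 20 Mediator members by module (y axis) in the 3 comparisons of the authors' deposited table, with bars for 1 implied standard error, filled symbols past the threshold and dashed lines at -1 and 1. Head, middle and tail genes lie left of 0 at 6 h, from MED18 at -4.24 with SNS-032 to MED10 at -0.47 with 955, and MED12 and MED12L lie right of 0 in the deposited scaling but left of it under the mitochondrial scaling.

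Integrator genes went both ways under the authors' scaling: of 8 listed, 6 fell and 2 rose with 955 at 6 h, and 4 fell and 2 rose in the SNS-032 comparison of the authors' deposited table, and the 2 that rose were below 0 under the mitochondrial scaling. Over all listed genes 50.1% and 52.5% fell and 35.2% and 37.8% rose, so listed genes in general went both ways. INTS11, the endonuclease of the complex, and INTS9, its catalytically inactive partner, stood apart. INTS11 stood at 0.35 ± 0.12 after 1 h of 955, 1.09 ± 0.12 after 6 h and 1.19 ± 0.12 under SNS-032 in the authors' deposited table, and at -0.99 and -1.15 in the 6 h comparisons under the mitochondrial scaling. INTS9 stood at -0.06, -1.47 ± 0.14 and -1.14 ± 0.14 in the authors' deposited table. INTS5 and INTS8 belong to the module that carries the phosphatase PP2A. INTS5 stood at -1.79 ± 0.27 after 1 h of 955 (3.45-fold lower, FDR 0.000636), the lowest of the members at that time, and at -2.86 ± 0.29 (7.24-fold lower) and -2.95 ± 0.29 (7.73-fold lower) in the 6 h comparisons of the authors' deposited table. INTS8 stood at 0.00 ± 0.14, -1.11 ± 0.15 and -0.73 ± 0.15 in the authors' deposited table. INTS1 is the largest subunit and a scaffold, and INTS12 binds to it. INTS1 stood at 0.38 ± 0.11, 1.54 ± 0.12 (2.91-fold higher, FDR 2.04e-10) and 1.67 ± 0.12 (3.19-fold higher, FDR 4.15e-11) in the authors' deposited table, and at -0.53 and -0.67 in the 6 h comparisons under the mitochondrial scaling. INTS12 stood at -0.56 ± 0.20, -1.52 ± 0.21 and -1.56 ± 0.21 in the authors' deposited table. INTS14 and INTS15, of the module built with INTS10 and INTS13, stood at -1.58 ± 0.14 and -1.11 ± 0.15 after 6 h of 955 and at -1.51 ± 0.14 and -0.998 ± 0.15 under SNS-032 in the authors' deposited table, where INTS15 missed the bound with SNS-032.

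At 1 h of 955 the 6 members past the threshold were INTS5, MED9, MED17, TAF5, GTF2E1 and MED8, and each was lower than in DMSO by 2.15-fold to 3.45-fold in the authors' deposited table. Without the bound on size, INTS15 (-0.61 ± 0.15, FDR 0.013) and MED29 also met the FDR limit in the authors' deposited table. The 1 h samples were compared with DMSO samples of 6 h, so treatment and time in culture cannot be told apart in this comparison. The DMSO samples are shared by the 1 h and 6 h comparisons, and the difference of the log2 fold changes contrasts 955 at 6 h with 955 at 1 h directly. With all DMSO samples taken at 6 h, this contrast also mixes length of treatment with time in culture. In that approximate contrast, with Benjamini-Hochberg adjustment over all 5759 listed genes, 28 members were lower at 6 h by at least 1, against 35.6% of all listed genes, and 2 were higher, against 27%. The median difference was -1.05 over the members and -0.45 over all listed genes. GTF2B, MED19 and GTF2A1 had the largest further falls, of -3.19 (95% interval -4.14 to -2.24), -2.90 (-3.41 to -2.38) and -2.29 (-2.67 to -1.91) log2 units. MED12L and INTS1 were higher at 6 h by 1.45 (1.14 to 1.75) and 1.17 (0.93 to 1.40), with adjusted p of 7.49e-09 and 4.85e-09, and under the mitochondrial scaling neither passed and the split was 0 higher and 44 lower.

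The further change by 6 h varied among the genes that fell by 1 h. Of the 6 members past the threshold at 1 h, INTS5 and MED8 had further differences of -1.07 (95% interval -1.66 to -0.48) and -1.55 (-2.10 to -0.99) log2 units in the approximate contrast. TAF5 and GTF2E1 were lower again by less than the bound, at -0.69 (-1.13 to -0.26, adjusted p 0.00415) and -0.76 (-1.32 to -0.20, adjusted p 0.013). For MED17 the difference was -0.18 (-0.59 to 0.22, adjusted p 0.378), and for MED9 it was 0.49 (-0.05 to 1.04, adjusted p 0.0832), and both intervals include 0. MED7 had a difference of 0.12 (-0.56 to 0.80), MED10 of -0.19 (-0.68 to 0.29) and TAF7 of -0.25 (-0.67 to 0.17), and none of these 3 passed. The mitochondrial scaling lowers each of these differences by 1.40 and turns those of MED9 and MED7 negative. Under it MED17 (-1.58, adjusted p 8.3e-08), TAF5 (-2.09, 2.11e-09), GTF2E1 (-2.16, 1.09e-07), MED7 (-1.28, 0.00117), MED10 (-1.59, 1.5e-06) and TAF7 (-1.65, 3.63e-07) passed as lower at 6 h.

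The 955 and SNS-032 samples at 6 h were collected at the same time but at different doses, 0.1 µM and 1 µM, so the values stand side by side and say nothing of potency. In the approximate contrast of these groups, 0 of 51 members differed by at least 1 with an adjusted p under 0.05, against 0.851% of all listed genes higher with 955 and 0.26% lower. Under the mitochondrial scaling 1 member passed (MED8, 1.09, adjusted p 0.016), and over all listed genes 170 were higher with 955 and 11 lower, in place of 49 and 15. At an unadjusted p under 0.05 there were 10 of 51 members and 850 of all 5759 listed genes. For 41 of 51 members the difference was smaller than 0.5 log2 units in size, as it was for 4744 of all 5759 listed genes. The median difference of the members was 0.07, and their median 95% interval reached 0.39 to either side. Without the bound, 2 of 51 members and 157 of all 5759 listed genes had an adjusted p under 0.05, and both members were lower with 955. The tail subunit gene MED27 differed by -0.97 (95% interval -1.34 to -0.61, adjusted p 0.00392), and the SAGA gene TAF6L by -0.64 (-0.98 to -0.31, adjusted p 0.0285). MED18 had the largest difference in the other direction, 1.22 (-0.07 to 2.51, adjusted p 0.37), and MED8 the next, 0.82 (0.23 to 1.41, adjusted p 0.147). TAF7 stood higher with 955 by 0.70 (0.28 to 1.12, adjusted p 0.0745). The kinase module and Integrator genes that rose under the authors' scaling, and that fell below 0 under the mitochondrial scaling, had narrow intervals around 0 in this contrast: MED12L -0.02 (-0.33 to 0.28), INTS1 -0.13 (-0.37 to 0.11), INTS11 -0.11 (-0.35 to 0.13) and MED12 -0.09 (-0.36 to 0.17). A p that misses the threshold does not show that the compounds act alike, and for GTF2B the interval (-1.22 to 0.81) still allows a difference beyond 1. Members that were past the threshold with 1 compound alone, such as POLR2B, POLR2C, MED4, INTS8 and INTS15 with 955, or GTF2F1, MED10, MED12, MED26, MED30, MED7, POLR2M, TAF11 and TAF1A with SNS-032, did not pass in this test of the difference.

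**Figure D3:**
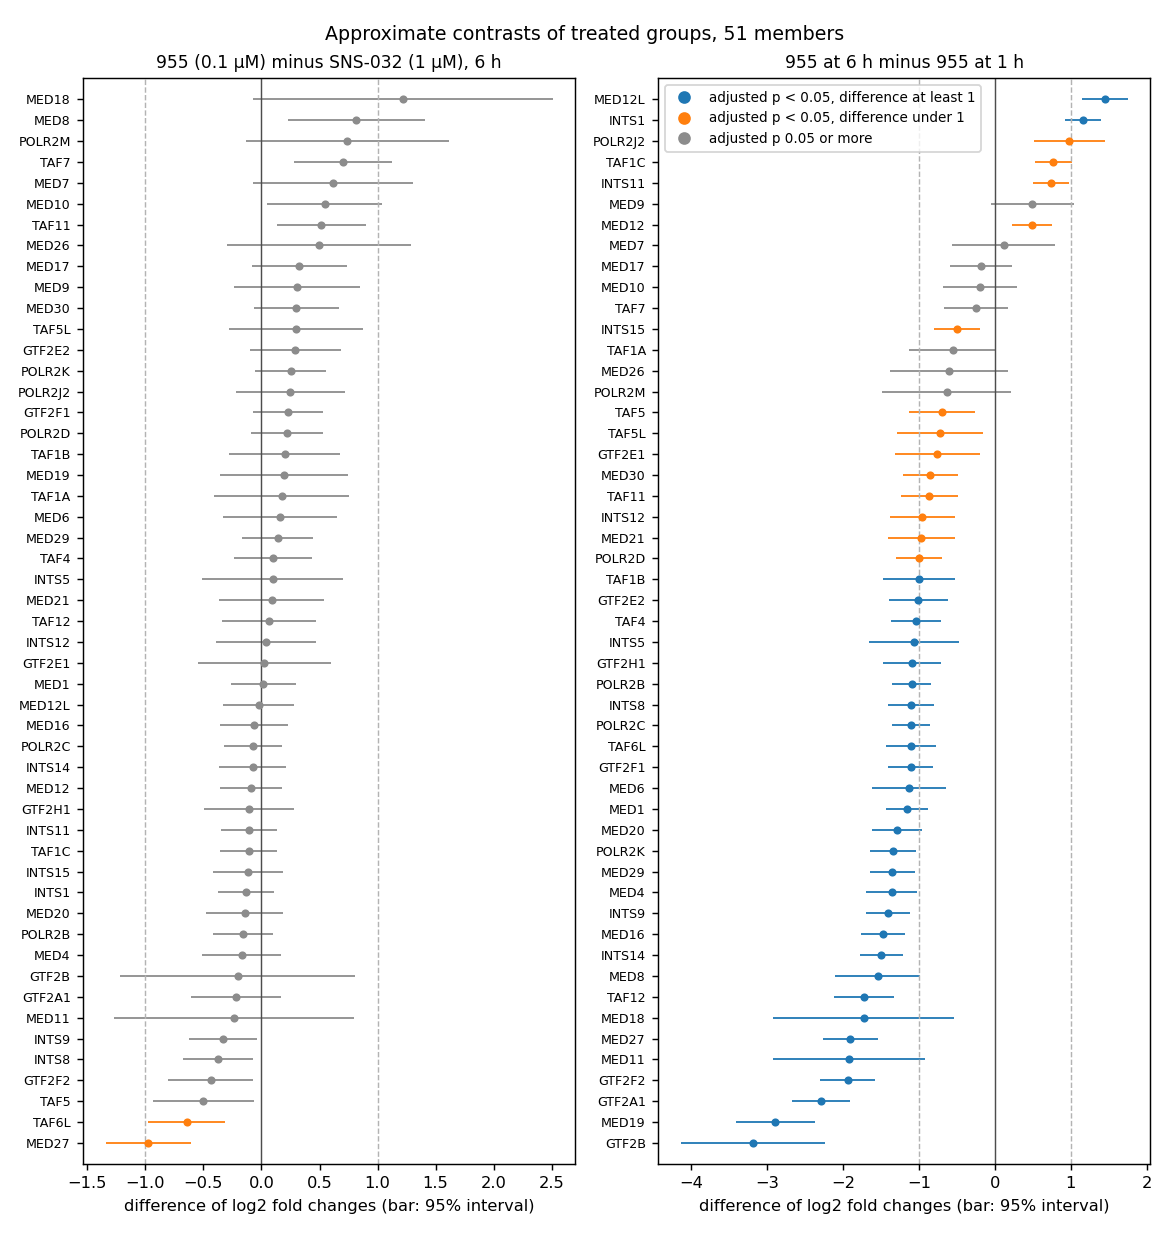
Difference between treated groups in log2 fold change (x axis, points, with bars for 95% intervals) for each of the 51 members (y axis), for 955 at 0.1 µM minus SNS-032 at 1 µM at 6 h (left) and for 955 at 6 h minus 955 at 1 h (right). On the left 0 members reach a difference of 1 with an adjusted p under 0.05 (MED8 does under the mitochondrial scaling) and MED27 lies lowest at -0.97, while on the right 28 members do so below 0 and MED12L and INTS1 do so above 0, the latter 2 not under the mitochondrial scaling.

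Other genes that work with polymerase II were read from lists of related factors. Their counts are read beside the shares over all listed genes. These were 50.1% lower and 35.2% higher with 955 at 6 h, and 52.5% and 37.8% under SNS-032. Of 12 pausing and P-TEFb genes, 3 were listed and 3 of 3 fell in both 6 h comparisons of the authors' deposited table. MEPCE, which caps and stabilises the 7SK RNA that holds P-TEFb inactive, stood at -1.42, -2.30 and -2.55 in the authors' deposited table, and CCNT1, the cyclin of CDK9, at -0.59, -1.31 and -1.53. In the list of elongation factors 9 of 17 were listed, with 6 lower in both 6 h comparisons, 2 higher with 955 and 3 higher under SNS-032, by the authors' deposited table. The 4 listed genes of the PAF1 complex, which travels with the elongating enzyme, were among the lower ones: after 6 h of 955, PAF1 stood at -3.07, CTR9 at -2.62, LEO1 at -2.32 and CDC73 at -1.36 in the authors' deposited table. TCEA2, a paralog of the factor that restarts stalled polymerase, stood at 0.36, 1.91 and 2.14 in the authors' deposited table, and like all listed genes under a log2 fold change of 2.07 it lies below 0 with 955 at 6 h under the mitochondrial scaling. Of 16 genes for the CTD phosphatases and polymerase assembly, 8 were listed, with 7 lower with 955 at 6 h and 8 lower under SNS-032 in the authors' deposited table. CTDP1, the phosphatase that recycles the polymerase tail, stood at -1.11, -2.08 and -2.19 in the authors' deposited table. The super elongation complex had 4 of 9 genes listed (3 lower with 955 at 6 h, 2 with SNS-032), and the other TFIIH and TBP genes 5 of 8 (3 lower and 1 higher with 955 at 6 h, 4 lower under SNS-032), by the authors' deposited table. SAGA and ATAC had 8 of 12 listed, with 4 lower and 2 higher with 955 at 6 h and 5 lower and 3 higher under SNS-032 in the authors' deposited table. In that list KAT2A and KAT2B, the acetyltransferases, stood at 1.19 and 1.66 at 6 h of 955 in the authors' deposited table, both below 0 under the mitochondrial scaling. Under that scaling 29 of the 29 other polymerase II genes and 8 of the 8 SAGA and ATAC genes were below 0 in each comparison. So were 5345 (955, 1 h), 5114 (955, 6 h) and 5265 (SNS-032, 6 h) of the 5759 listed genes.

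The polymerases I and III, read for comparison, were described the same way, beside the same shares over all listed genes. These were 50.1% lower and 35.2% higher with 955 at 6 h, and 52.5% and 37.8% under SNS-032. For polymerase I, 8 of 10 list genes were listed, with 7 lower and 0 higher in each 6 h comparison and a median of -1.97 with 955 and -2.02 under SNS-032 in the authors' deposited table. For polymerase III, 14 of 20 were listed, with 13 lower with 955, 11 lower with SNS-032, 0 higher in either, and medians of -1.23 and -1.28 in the authors' deposited table. The POLR2 members had medians of -1.06 and -1.20 in the same comparisons of the authors' deposited table. The differences between these lists were not tested.

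Exon number went with the log2 fold change across the members at 1 h of 955 and with SNS-032, and less so at 6 h of 955. By GENCODE release 29 the members had 1 to 48 exons in the annotated transcript with the most exons, with a median of 8, and spanned 2.18 to 351 kb. Spearman's rho between exon number and log2 fold change across the 51 members was 0.49 after 1 h of 955, 0.19 after 6 h of 955 and 0.51 with SNS-032, and across 5262 listed protein-coding genes it was 0.33, 0.26 and 0.33. Gene span gave rho of 0.15, -0.07 and 0.16 across the members, and spliced length 0.11, 0.19 and 0.17. These correlations are across genes, which share the same libraries and are not independent replicates. At the high end INTS1 has 48 exons, MED12 has 45 and MED12L has 43, and these are 3 of the 6 genes that rose with SNS-032 under the authors' scaling and lay below 0 under the mitochondrial scaling. At the low end TAF7, with 1 exon, stood at -0.31 (955, 1 h), -0.55 (955, 6 h) and -1.26 (SNS-032) by the authors' deposited table. The member medians were -0.22, -1.22 and -1.44, so TAF7 goes against the pattern in the 6 h comparisons and not at 1 h. INTS5, MED7 and MED9 have 2 exons each, and at 1 h of 955 they stood at -1.79, -1.02 and -1.71 in the authors' deposited table. POLR2J2, with 4 exons, also goes against it, under the authors' scaling. Average level and log2 fold change also went together across the members (rho 0.61, 0.37 and 0.57) and less so across listed protein-coding genes (0.17, -0.03 and 0.01), and the average level includes the treated samples.

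**Figure D4:**
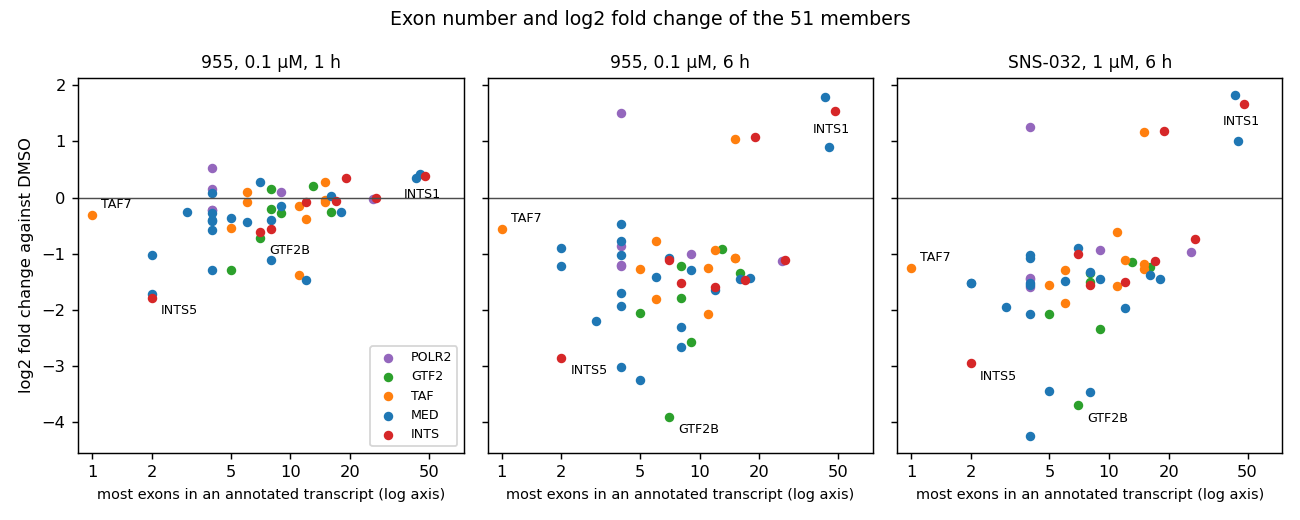
Most exons in an annotated transcript (x axis, log scale) against log2 fold change from the authors' deposited table (y axis) for the 51 members, coloured by family, in the 3 comparisons. INTS5, with 2 exons, lies low in all 3 panels and TAF7, with 1 exon, at -0.31, -0.55 and -1.26, while INTS1, with 48 exons, lies at 0.38, 1.54 and 1.67, the last 2 of which become -0.53 and -0.67 under the mitochondrial scaling.

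RefSeq promoters (300 bases, mostly before the start, GRCh38.p14) were at hand for 42 of the 51 members, for 4326 listed protein-coding genes and for 15843 protein-coding genes in all. The ETS core CCGGAAG, searched on both strands, was in 42.9% of the members' promoters, in 20.9% of those of listed genes and in 14.2% of all promoters. The YY1 core AAGATGG was in 16.7%, 7.95% and 6.40%, in the same order. The GC box GGGCGG was in 50% of members, 69.0% of listed genes and 58.5% of all promoters, the CCAAT box in 40.5%, 37.9% and 36.4%, and TATAAA in 9.52%, 6.31% and 9.63%. Median GC content was 58% for the members, 65% for listed genes and 62.7% for all. The 4 matched members that fell at 1 h had GC contents of 52% to 57%, and the 6 that rose at 6 h under the authors' scaling, all below 0 under the mitochondrial scaling, had 59% to 76.7%. The range was 47% to 85% over the 42 members and 28.7% to 94% over listed genes. The printed promoters of MED9, MED17, MED12L and INTS1 belong to these small groups. These groups differ in time as well as in direction, and GC content was not summarised for the members that fell at 6 h. Whether GC content and direction go together over all listed genes was not tested. A match describes letters in this window and is not a binding site.

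Many members share a promoter region with a neighbour on the opposite strand. In RefSeq, 19 of 51 members had the start of an opposite-strand gene within 1000 bases, 11 of them a protein-coding one, and 6 of these protein-coding partners were listed. The same count was not made over all listed genes. In 4 of the 6 pairs both genes stood below 0 in both 6 h comparisons of the authors' deposited table: GTF2E1 with RABL3, GTF2H1 with HPS5, MED29 with PAF1 and TAF5L with URB2. In each of these comparisons 45 of 51 members stood below 0, as did 3395 (955) and 3388 (SNS-032) of the 5759 listed genes. Whether neighbours were alike more often than other pairs was not tested. MED29 and the elongation factor gene PAF1 start 272 bases apart and stood at -1.93 and -3.07 at 6 h of 955 in the authors' deposited table. In the other 2 pairs the partners went opposite ways under the authors' scaling. INTS11 stood at 1.09 after 6 h of 955 while CPTP, a lipid transfer protein gene whose start lies 142 bases away, stood at -3.34 in the authors' deposited table, and under the mitochondrial scaling INTS11 was also below 0. INTS9 stood at -1.47 after 6 h of 955 while HMBOX1, a homeobox gene that starts 147 bases away, stood at 1.19 in the authors' deposited table, which is below 0 under the mitochondrial scaling. TAF12 starts 331 bases from RNU11, the U11 small nuclear RNA of the minor spliceosome. RNU11 stood at 4.77, 8.17 and 10.14, and TAF12 at -0.08, -1.80 and -1.87, in the authors' deposited table. The RNU11 values exceed the mitochondrial medians of 0.67, 2.07 and 2.35, so RNU11 stays above 0 under the mitochondrial scaling. The use of strand in counting is not given in the sources used here, so reads of overlapping opposite-strand genes cannot be told apart, and 13 members overlap a protein-coding gene on the other strand. Among those, MED20 overlaps BYSL over 12381 bases, and MED20 stood at -1.70 and BYSL at -3.09 at 6 h of 955 in the authors' deposited table.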

How the data were processed

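Column-purified total RNA was made into mRNA libraries with a kit from BGI, per the labels' protocols. Per the submitters' processing notes, the build was hg38 and DESeq2 was used, with no role or version stated. The aligner, the counter, its use of strand and the annotation are not given in the sources used here. The deposited file is the authors' table of 3 comparisons against DMSO. Per the file headers its columns are a log fold change and an average log CPM, both read as log2 values deposited by the authors (the smallest of the genes' largest absolute fold changes is 1.00), an F statistic, which is a score deposited by the authors, and a p-value and FDR deposited by the authors. The tests were planned on those columns.

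Computed from them were implied standard errors (absolute log2 fold change over root F), denominator degrees of freedom solved from F and p (11.3 to 23.3 for the members), and approximate contrasts of treated groups. A contrast was the difference of 2 log2 fold changes, with the root mean square of their standard errors and a t distribution. Benjamini-Hochberg adjustment was over the 5759 listed genes. Only the contrast of 955 with SNS-032 was run on simulated data. There each gene had the same standard error in all comparisons, so the run could not test the root mean square. Of the 5759 gene IDs, 5727 matched RefSeq (GRCh38.p14). Exons and spans came from GENCODE release 29. Python 3.11.15, scipy 1.17.1 and pandas 2.3.3 were used. Values are printed for fixed members, for the 4 lowest and 4 highest of each family with 955 at 6 h, and for members past a threshold at 1 h, in a contrast or with 1 compound alone, which together came to nearly all members. The members and lists were chosen with earlier results of these data known. POLR2J4 and GTF2H2B, transcribed pseudogenes, were left out by the rule. Alternatives were the mitochondrial scaling, other FDR and fold bounds, a level minimum of 2 log2 CPM, members without near-identical copies, and other standard errors of the contrasts. Of the markers of other cell types, not every gene is reported here.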

Additional observations from a re-analysis of the deposited data

Results flagged for a closer look

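The log2 fold change differed between the 6 h and 1 h samples of 955 for 30 of 51 members, by the approximate contrast with an adjusted p under 0.05 and a difference of at least 1 log2 unit. By the same limits it differed for 3609 of all 5759 listed genes, so the members do not stand out by this count. Both log2 fold changes are measured against the same DMSO samples of 6 h, so the contrast sets the treated groups against each other. Length of treatment and time in culture cannot be told apart in it. Among Mediator genes the differences (6 h minus 1 h, log2) were -2.90 for MED19, -1.91 for MED27, -1.93 for MED11, -1.73 for MED18, -1.55 for MED8, -1.48 for MED16, -1.36 for MED4, -1.35 for MED29, -1.29 for MED20, -1.16 for MED1, -1.13 for MED6 and 1.45 for MED12L. Among general factor genes they were -3.19 for GTF2B, -2.29 for GTF2A1, -1.94 for GTF2F2, -1.11 for GTF2F1, -1.09 for GTF2H1 and -1.01 for GTF2E2. Among TAF genes they were -1.72 for TAF12, -1.11 for TAF6L, -1.05 for TAF4 and -1.001 for TAF1B. Among polymerase II subunit genes they were -1.35 for POLR2K, -1.11 for POLR2C and -1.10 for POLR2B. Among Integrator genes they were -1.50 for INTS14, -1.41 for INTS9, -1.10 for INTS8, -1.07 for INTS5 and 1.17 for INTS1. The positive differences of MED12L and INTS1 did not pass under the mitochondrial scaling.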

How the results depend on the processing

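No paired analysis was possible because the deposited table holds comparisons and no values per sample; for the same reason leaving out each replicate in turn and the fit with the replicate block were not run. Under the mitochondrial scaling the number of lower members at 1 h became 19 in place of 6, the higher members became 0 in both 6 h comparisons, 955 against SNS-032 gave 1 differing member in place of 0 (MED8, 1.09), and the rises turned negative. With 955 at 6 h they became -0.27 (MED12L), -0.53 (INTS1), -0.56 (POLR2J2), -0.99 (INTS11) and -1.02 (TAF1C), and with SNS-032 -0.53, -0.67, -1.09, -1.15 and -1.18 in the same order and -1.34 (MED12). That follows from the shift itself. When the bound on size was 2 in place of 1, lower members numbered 0 at 1 h, 10 in the 6 h comparison of 955 and 8 in that of SNS-032, and higher members 0 in both 6 h comparisons. Without a bound, 955 against SNS-032 gave 2 differing members, against 157 of the 5759 listed genes. Every other count tried stayed within 1.5 times its main value, and the cause of the remaining shifts was not tested. Depth per sample is unknown, so how far counting error limits genes of low level, such as MED11 and POLR2M, cannot be given.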

Other observations

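Transcribed pseudogenes with machinery names were left out of the members. POLR2J4, a copy of POLR2J like POLR2J2, stood at 0.42 after 1 h of 955, 1.52 after 6 h of 955 and 1.63 under SNS-032 in the authors' deposited table. GTF2H2B, a copy of a TFIIH subunit gene, stood at 0.29, 0.99 and 1.05 in the same order in the authors' deposited table. All of these 6 h values lie under the median of the mitochondrially encoded mRNAs, so they are below 0 under the mitochondrial scaling.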
